A study of Mus musculus with 6 samples.

Results

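The immunoglobulin variable (V), diversity (D) and joining (J) segments are the gene pieces from which B cells assemble antibody genes. They were chosen by symbol alone, as every gene whose name starts with Ighv, Ighd, Ighj, Igkv, Igkj, Iglv or Iglj followed by a digit, which gave 279 of the 29721 genes in the deposited count table. The heavy chain locus on chromosome 12 contributed 138 V segments, 5 D segments and 4 J segments. The kappa light chain locus on chromosome 6 contributed 121 V and 5 J segments, and the lambda locus on chromosome 16 contributed 3 V and 3 J segments. Of the V segments, 30 in the heavy locus and 23 in the kappa locus are annotated as pseudogenes, which cannot encode a working chain.

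Messenger RNA was sequenced from the pancreas of 6 mice aged 3 months, to ask how PARP2 bears on the growth of pancreatic tumours. All 6 carried the Ela-myc transgene, in which the elastase promoter drives Myc in acinar cells, the pancreatic cells that make digestive enzymes. In 3 animals Parp2 was wild type (WT) and in 3 it was knocked out (PARP2 KO), and each library came from a different animal. PARP2 modifies proteins with ADP-ribose in the nucleus and acts in DNA repair. The labels name the tissue as pancreas, the protocol speaks of tumour samples, and the sources used here do not say which cells carry the knockout.

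In each developing B cell, 1 heavy chain V segment is cut and joined to a D and a J segment, and 1 light chain V segment to a J segment, by the RAG recombinase. The joined V region is then transcribed together with a constant region gene, so a V or J transcript in adult tissue mostly marks a B cell or an antibody-secreting plasma cell. The number of V segments in use, and how evenly they are used, is a coarse description of the B cells in a tissue, since these counts do not show which segments were joined to each other.

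The J segments are printed first because the choice among them is compared below. Sequences were taken from GENCODE vM21 transcripts on GRCm38 and are written 5′ to 3′ on the coding strand. Capitals mark 12 bases, read as TTCGG, any 4 bases, GG and any base in the kappa J segments (chr6:70722562-70723927, plus strand), and as TGGGG, any 4 bases, GG and any base in the heavy J segments (chr12:113428514-113429833, minus strand). Where they match, the 12 bases encode the phenylalanine- or tryptophan-glycine motif at the base of the antigen-binding loop. The kappa motif was found in 4 of 5 kappa J segments, and in Igkj3 the capitals mark the same position without a match. The heavy motif was found in 4 of 4 heavy J segments. Searched on both strands, the kappa motif was present in 0 of 262 V segment transcripts and the heavy motif in 11 of 262 (4.20%).
Igkj1: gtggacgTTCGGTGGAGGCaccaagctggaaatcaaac
Igkj2: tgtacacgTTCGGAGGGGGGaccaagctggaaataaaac
Igkj3: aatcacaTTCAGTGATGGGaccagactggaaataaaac
Igkj4: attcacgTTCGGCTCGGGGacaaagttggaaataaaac
Igkj5: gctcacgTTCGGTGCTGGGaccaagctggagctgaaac
Ighj1: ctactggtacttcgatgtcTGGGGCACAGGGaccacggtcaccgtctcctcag
Ighj2: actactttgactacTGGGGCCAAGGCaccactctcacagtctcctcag
Ighj3: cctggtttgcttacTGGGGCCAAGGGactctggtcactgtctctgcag
Ighj4: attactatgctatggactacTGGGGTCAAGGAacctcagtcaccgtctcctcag

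The 3′ ends of the V segments below are shown because these segments led their locus in at least 1 library, or because they set 1 wild-type library apart. Capitals mark the codon of the conserved cysteine that ends framework 3, and the bases after it are the part of the segment that enters the antigen-binding loop. The first 6 are heavy and the next 4 kappa segments that were the most counted of their locus in a library.
Ighv1-81: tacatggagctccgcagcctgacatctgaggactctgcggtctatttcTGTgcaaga
Ighv1-52: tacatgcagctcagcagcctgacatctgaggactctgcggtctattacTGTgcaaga
Ighv1-11: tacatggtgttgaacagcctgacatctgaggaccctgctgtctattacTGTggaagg
Ighv1-19: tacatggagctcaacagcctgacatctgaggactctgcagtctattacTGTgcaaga
Ighv1-9: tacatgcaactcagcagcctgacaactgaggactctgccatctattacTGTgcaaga
Ighv7-3: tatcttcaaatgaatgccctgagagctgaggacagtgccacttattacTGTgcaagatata
Igkv1-110: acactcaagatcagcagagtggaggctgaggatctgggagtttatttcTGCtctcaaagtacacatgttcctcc
Igkv1-117: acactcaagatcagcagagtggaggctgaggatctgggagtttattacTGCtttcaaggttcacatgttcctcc
Igkv10-96: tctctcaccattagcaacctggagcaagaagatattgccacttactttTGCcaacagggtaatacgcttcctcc
Igkv19-93: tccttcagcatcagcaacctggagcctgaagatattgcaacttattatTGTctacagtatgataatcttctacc
Ighv11-2: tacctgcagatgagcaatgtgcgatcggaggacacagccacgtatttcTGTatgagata
Ighv12-3: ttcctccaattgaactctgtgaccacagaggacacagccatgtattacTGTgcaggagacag
Igkv14-126: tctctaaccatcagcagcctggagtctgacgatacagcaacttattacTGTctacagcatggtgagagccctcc
Igkv4-91: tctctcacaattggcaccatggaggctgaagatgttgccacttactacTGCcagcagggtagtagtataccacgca

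Many V segments are close copies of each other, which limits how well short reads tell them apart. Over the last 280 bases of each transcript the median identity to the nearest other segment was 93.9%, and 44 of 262 segments had another member at least 97% identical. Igkv1-110 and Igkv1-117 were 96.8% identical, Iglv1 and Iglv2 97.5%, and Ighv1-52 and Ighv1-61 98.6%, whereas Ighv1-11 was 82.9% identical to its nearest neighbour. All 5 kappa J segments lie inside the non-coding gene Gm30211 on the same strand. How reads with several matches or on overlapping genes were counted is not given in the sources used here, so the counts of single close copies and of kappa J segments are uncertain.

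Libraries held between 28105021 and 32055565 counts. Parp2 itself measured 40.4, 36.4 and 37.5 CPM (counts scaled by library size and TMM factor) in the wild-type and 14.4, 12.4 and 13.6 CPM in the knockout libraries (log2 fold change -1.50, SE 0.10), so all 6 libraries matched their labels. The libraries also differed in acinar content: 9 acinar markers summed to 15.4%, 15.8% and 12.8% of counts in the wild-type libraries and to 2.34%, 8.07% and 0.0104% in the knockout libraries. Wild-type replicate 2 stood apart in segment use, and results that rest on it are given with and without it.

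The antibody segments took a larger part of the RNA in every knockout library. Their share of all gene counts was 0.0510%, 0.0383% and 0.0190% in the wild-type libraries and 0.188%, 0.153% and 0.271% in the knockout libraries. The lowest knockout share was above the highest wild-type share, and exact binomial 95% intervals, which cover counting error only, ran from 0.0502% to 0.0518% for the latter and from 0.152% to 0.154% for the former. The means were 0.0361% ± 0.0161 and 0.204% ± 0.0606 (SD, n = 3 each), a ratio of 5.65. In bulk tissue, more B cells and more antibody RNA per cell cannot be told apart.

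**Figure D1:**
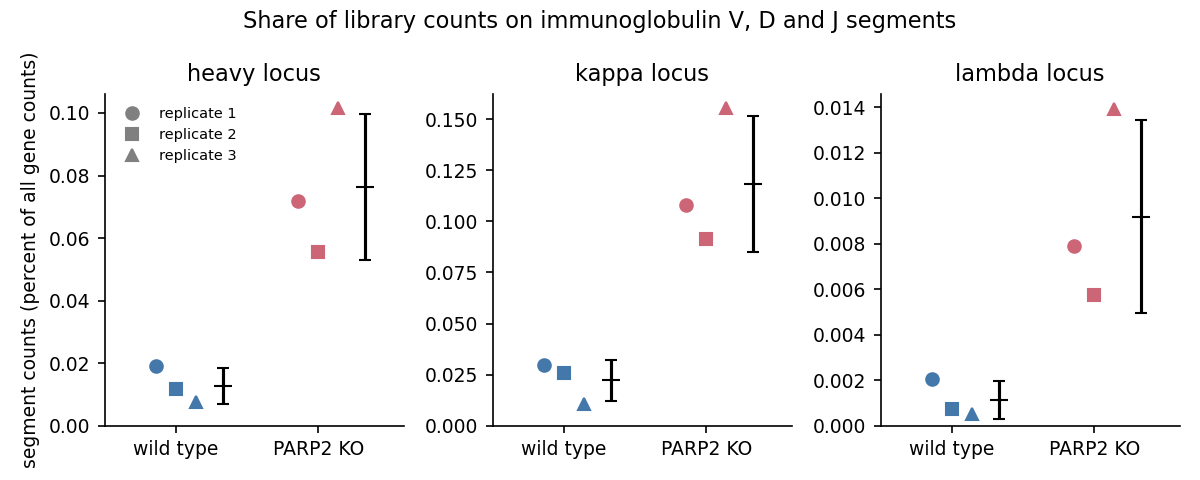
Percent of all gene counts (vertical axis, own scale per panel) on segments of the heavy, kappa and lambda loci, with 1 point per library, its shape giving the replicate, and a black bar for the genotype mean ± SD (n = 3). In each panel all knockout libraries lie above all wild-type libraries, with heavy means of 0.0128% and 0.0763%, kappa means of 0.0221% and 0.118% and lambda means of 0.00111% and 0.00920%.

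The difference was of like size when the 9 acinar marker genes were taken out of the total. Against the counts outside the acinar list, the segment share was 0.0425% ± 0.0194 for wild-type mice and 0.210% ± 0.0544 for knockouts (SD, n = 3 each), again with no overlap. The ratio of means was 4.94, beside 5.65 over all counts. Leaving out 1 library at a time moved the difference between genotype means from 0.168 percentage points to between 0.134 and 0.193. Other acinar transcripts stayed in the total, and the part that acinar content and other differences in tissue composition had in the difference was not tested.

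All 3 loci shared in the higher level. The knockout to wild-type ratio of mean shares was 5.94 for heavy, 5.34 for kappa and 8.25 for lambda segments, and in each locus the genotypes did not overlap. The makeup of the segment RNA was similar: heavy segments gave 30.9% to 40.3% of segment counts in wild type and 36.3% to 38.3% in knockout, and kappa segments 56.9% to 67.1% and 57.4% to 59.9%. Lambda segments gave 4.05%, 1.94% and 2.81% in wild type and 4.21%, 3.77% and 5.14% in knockout. The genotypes overlapped in all 3 proportions.

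By role, V segments gave 88.3% to 90.3% of segment counts in every library and J segments 9.68% to 11.7%. The short D segments drew almost no counts, with 0, 1 and 0 in wild type and 7, 8 and 21 in knockout, and none of the 5 passed the filter on low counts. Of these, Ighd1-1 had the most counts, with 4, 4 and 10 in the knockout libraries and 0 in wild type. Pseudogenes gave 0.270% to 0.436% of segment counts in wild type and 0.291% to 0.482% in knockout, overlapping ranges, so nearly all counts fell on segments that can encode a chain.

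More of the segments were seen in knockout libraries. At least 1 count was found for 214, 201 and 196 segments in wild type and for 265, 260 and 265 in knockout, and at least 10 counts for 142, 98 and 120 against 196, 190 and 203. Since a library with more segment counts also meets more of the rare segments, each library was thinned to 5732 segment counts, the smallest total, and the expected number seen was computed exactly. Thinned libraries held 190.6, 180.4 and 196 segments in wild type and 207.5, 209.1 and 203.2 in knockout. The difference of means shrank from 59.7 to 17.6 segments, and the genotypes still did not overlap (189.0 ± 7.90 against 206.6 ± 3.07, SD, n = 3 each).

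**Figure D2:**
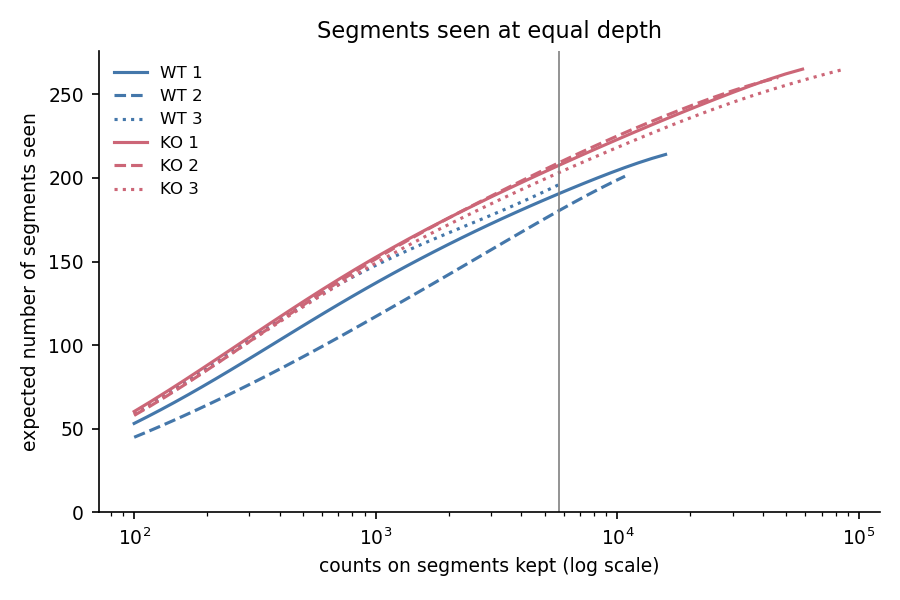
Expected number of V, D and J segments seen in each library (vertical axis) when it is thinned to a given number of segment counts (log axis), with wild-type libraries in blue, knockout libraries in red and a grey line at 5732 counts. At that line the wild-type curves lie between 180.4 and 196 and the knockout curves between 203.2 and 209.1, and each curve ends at the library's own total.

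The difference was of like size in the heavy and kappa loci. Thinned to 2152 heavy V counts, 93.1, 89.8 and 91 heavy V segments were seen in wild type and 100.1, 101.8 and 95.8 in knockout. Thinned to 2784 kappa V counts, 83.8, 79.1 and 91 kappa V segments were seen in wild type and 93.0, 92.7 and 92.2 in knockout, where wild-type replicate 3 lay only just below the knockout libraries. Without pseudogenes the thinned numbers were 178.6, 171.7 and 183 against 191.3, 191.9 and 191.1. All 3 lambda V segments were seen in every library. Without wild-type replicate 2 the difference over all segments was 13.3.

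Evenness of use, measured without thinning, overlapped between the genotypes. Pielou's index, the entropy of V segment use divided by its highest possible value for the number of segments seen, was 0.797, 0.770 and 0.849 for heavy V segments in wild type and 0.815, 0.792 and 0.795 in knockout. For kappa V segments it was 0.769, 0.661 and 0.832 against 0.807, 0.797 and 0.792, and for lambda V segments 0.823, 0.786 and 0.863 against 0.833, 0.886 and 0.861. The wild-type libraries spread more widely than the knockout libraries in the heavy and kappa loci, with both the most and the least even library among them. The kappa difference of means, 0.0452, was -0.00109 without wild-type replicate 2. Pielou's index divides by a number seen that also depends on the number of segment counts, so it cannot be set directly against the thinned numbers above. A depth-corrected measure, given in the last section, had differences of means of 0.0579 for heavy and 0.0872 for kappa V segments. The part of depth in the index was not tested.

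**Figure D3:**
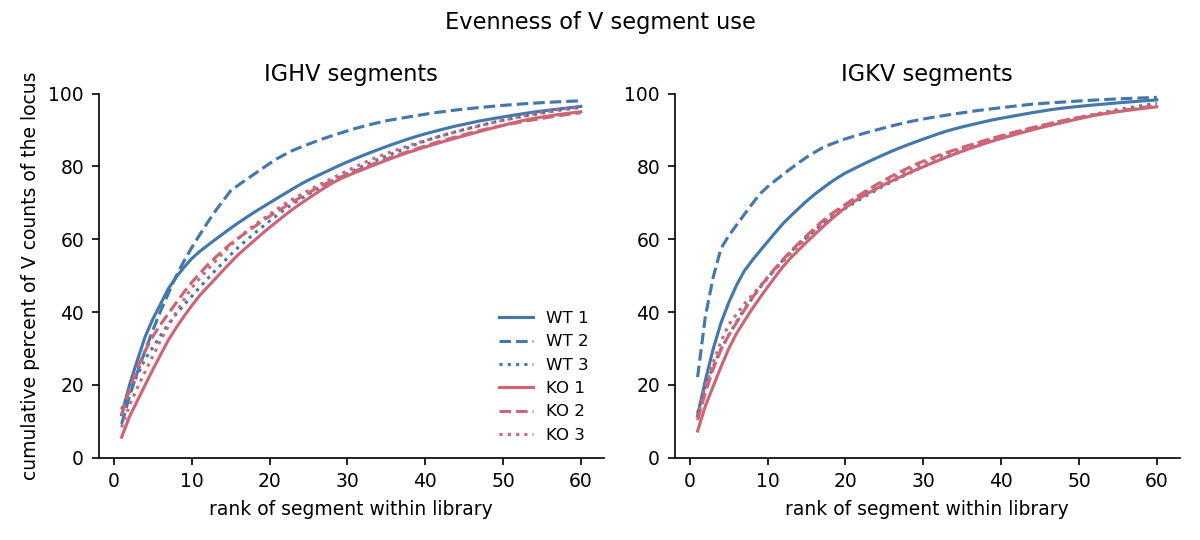
Cumulative percent of V counts (vertical axis) held by the most used segments of the heavy (IGHV) and kappa (IGKV) loci in rank order, with wild-type libraries in blue and knockout libraries in red. The 10 most used kappa segments hold 59.3%, 74.4% and 49.4% in wild type, the highest being replicate 2, and 46.9% to 49.5% in the knockout libraries.

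Measures that also count the number of segments in use had higher means in knockout. The effective number of heavy V segments, the exponential of the entropy, was 40.5, 33.9 and 46.0 in wild type and 53.1, 47.3 and 48.1 in knockout. The kappa values were 33.1, 19.5 and 42.6 against 46.4, 43.4 and 42.6, so the genotypes met at this rounding. These numbers were not thinned, and the number of segment counts moves with genotype in them. The inverse Simpson number, which weights the most used segments, was 23.8, 23.3 and 27.4 against 38.2, 27.7 and 32.6 for heavy V segments and overlapped for kappa V segments, at 20.2, 9.82 and 26.0 against 31.8, 27.4 and 25.6.

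The leading V segment differed between animals. The most used heavy V segment held 11.9%, 9.30% and 13.3% of heavy V counts in wild-type mice against 5.66%, 11.6% and 8.39% in knockout, and it was a different segment in each of the 6 libraries. In order they were Ighv1-81, Ighv1-52 and Ighv1-11 in wild type and Ighv1-19, Ighv1-9 and Ighv7-3 in knockout. The most used kappa V segment was Igkv1-110 in 3 libraries (wild-type replicates 1 and 3, knockout replicate 3), Igkv1-117 in wild-type replicate 2, Igkv10-96 in knockout replicate 1 and Igkv19-93 in knockout replicate 2. Its part of kappa V counts was 11.6%, 22.1% and 12.3% against 7.36%, 10.4% and 11.0%. Iglv1 led the lambda locus in every library with 57.6% to 60.8%.

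The knockout libraries resembled one another in segment use more than the wild-type libraries did. Shared use, the sum over segments of the smaller of 2 libraries' percentages, was 64.4% to 73.3% among the 3 knockout pairs for heavy V segments and 49.6% to 54.9% among the 3 wild-type pairs, with 48.5% to 69.0% across genotypes. For kappa V segments it was 72.1% to 74.5%, 49.4% to 71.9% and 46.8% to 73.1%. The wild-type pair without replicate 2 shared 54.9% of heavy and 71.9% of kappa V use, the latter close to the knockout pairs. The wild-type libraries also hold fewer segment counts, and the part of depth in these values was not tested.

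All segments called by edgeR in the fit of all 6 libraries were higher in knockout. Of the 279 segments, 183 passed the filter on low counts, and edgeR's quasi-likelihood test with Benjamini-Hochberg adjustment over all 17652 genes tested called 124 of them higher in knockout at an adjusted p under 0.05, against 28.0% of all genes tested. At an adjusted p under 0.01 it called 56, against 15.7% of all genes. It called 0 lower, against 25.0% of all genes, and 0 were lower at an unadjusted p under 0.05. DESeq2 and limma-voom also called 0 lower, with 1 and 0 at an unadjusted p and 28.0% and 27.9% of all genes called lower. The median log2 fold change of the 183 was 2.48, beside 0.02 over all genes tested, and 6 of the 183 had a value below 0. In 141 of the 183 every knockout library was above every wild-type library in CPM, which held for 34.4% of all genes, and in 0 was every knockout library below, which held for 33.7%.

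Because the filter can pass a segment on its knockout counts alone, these shares describe the tested segments and not all 279. Over all 279, 42 segments had no count in any wild-type library and some in knockout, against 5.07% of all listed genes, and 0 had the reverse, against 2.80%. The wild-type libraries also held fewer segment counts (10768 against 63816 on average). By class, 51 of 83 tested heavy V segments, 59 of 85 kappa V segments, 3 of 3 lambda V segments, 3 of 4 heavy J segments, 5 of 5 kappa J segments and 3 of 3 lambda J segments rose. Of the 53 pseudogenes, 5 were tested and 3 rose. Divided in 3 along the heavy V locus, with 46 segments each, the part nearest the J cluster gave 34.0%, 31.5% and 25.1% of heavy V counts for wild-type mice and 30.7%, 33.4% and 44.3% for knockouts, and the genotypes overlapped in all 3 stretches. Without wild-type replicate 2, the number called higher was 97 of 194 tested, against 20.1% of all genes, and 76 of the 124 were called whichever library was left out.

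**Figure D4:**
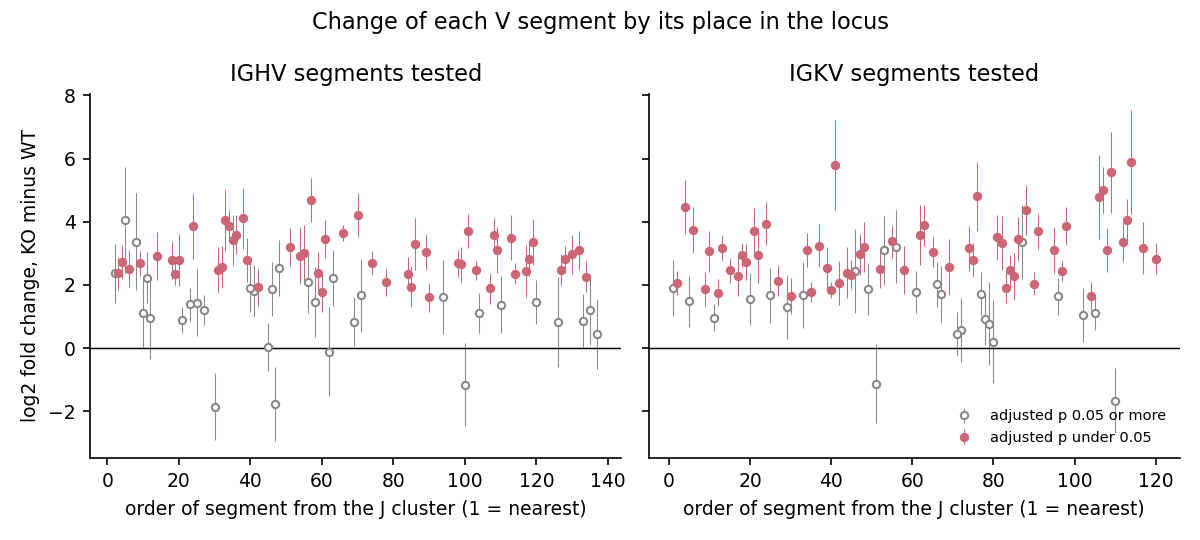
Log2 fold change (knockout minus wild type, bars are SE) of the 83 tested heavy V (IGHV) and 85 tested kappa V (IGKV) segments by their order along the locus from the J cluster, filled red where edgeR called them. Called segments lie along both loci and above 0, and the values run from -1.85 to 5.90.

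Ighv1-15, Ighv9-3 and Ighv1-54 were the heavy V segments of smallest p. Ighv1-15 (chr12:114657353-114657786, minus strand) had the smallest p of all segments, with 0.313, 0.386 and 0.275 CPM in wild-type mice against 4.27, 4.32 and 3.65 CPM in the knockouts (edgeR log2 fold change 3.64, SE 0.26, adjusted p = 0.00201). Ighv9-3 measured 2.74, 1.16 and 0.688 CPM in wild-type mice against 18.6, 22.7 and 25.3 CPM in the knockouts (edgeR log2 fold change 3.86, SE 0.51, adjusted p = 0.00317). Both sets of knockout values were close together and far from wild type. Ighv9-3 (chr12:114140692-114141122) also took a larger part of heavy V use, at 1.32%, 0.872% and 0.929% against 3.37%, 4.62% and 3.26%. Such a gain in use was not particular to Ighv9-3. Ighv1-15, Ighv1-19, Ighv7-3, Ighv4-1, Ighv1-5 and Ighv1-75, among others, were also used more in every knockout library than in any wild-type library. Many other heavy V segments overlapped in use, and Ighv11-2 and Ighv12-3, given below, were used less. The level of Ighv1-54 was also apart, with 0.547, 0.945 and 0.619 CPM against 3.84, 3.47 and 4.31 CPM (edgeR log2 fold change 2.46, adjusted p = 0.00237). Its part of heavy V use overlapped between genotypes.

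Each heavy V segment that led a knockout library rose. They were picked on the same counts that were tested, which favours a higher knockout value. Ighv1-19 (chr12:114708648-114709135) measured 0.782, 1.93 and 0.447 CPM in wild-type mice against 31.2, 9.43 and 17.4 CPM in the knockouts (edgeR log2 fold change 4.22, SE 0.70, adjusted p = 0.00556). Ighv1-9 (chr12:114583569-114584002) measured 2.62, 4.55 and 1.76 CPM against 23.7, 57.0 and 17.5 CPM (edgeR log2 fold change 3.47, SE 0.60, adjusted p = 0.00624). In both, the lowest knockout value was above the highest wild-type value, while the knockout animals also differed widely among themselves. Ighv7-3 (chr12:114153180-114153644) measured 5.04, 2.10 and 1.82 CPM against 16.2, 14.8 and 65.3 CPM (edgeR log2 fold change 3.42, adjusted p = 0.0157), and its call ended without wild-type replicate 2 (0.0671) or 3 (0.0588).

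The heavy V segments that led a wild-type library did not pass the test. Picking them on their wild-type counts works against a rise, so the contrast with the segments above is partly built in. Ighv1-81 (chr12:115920279-115920712) measured 24.6, 8.72 and 3.34 CPM in wild-type mice against 23.8, 34.9 and 8.16 CPM in the knockouts (edgeR log2 fold change 0.87, adjusted p = 0.404). Ighv1-11 (chr12:114612243-114612675) measured 0.547, 0.0859 and 9.88 CPM against 3.94, 1.32 and 4.49 CPM (edgeR log2 fold change -0.11, adjusted p = 0.952). Its wild-type mean rests on replicate 3, without which the log2 fold change was 3.32 and the adjusted p 0.0380. Ighv1-52 (chr12:115145487-115145919) measured 1.13, 12.4 and 0.172 CPM against 2.76, 2.02 and 1.31 CPM (edgeR log2 fold change -1.16, adjusted p = 0.479), and without wild-type replicate 2 the log2 fold change was 1.64.

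The other heavy V segments of highest level were Ighv3-6, Ighv8-8 and Ighv6-3. Ighv3-6 had 16.7, 6.48 and 1.24 CPM in wild-type mice against 23.8, 28.8 and 33.1 CPM in the knockouts (edgeR log2 fold change 1.81, adjusted p = 0.111). Ighv6-3 had 8.68, 0.902 and 2.03 CPM against 22.5, 11.4 and 33.6 CPM (edgeR log2 fold change 2.54, adjusted p = 0.0548). In both, the genotypes did not overlap and the wild-type libraries were far apart. Limma-voom and edgeR without wild-type replicate 1 called both, with adjusted p of 0.0253 and 0.0373 for Ighv3-6 and of 0.0231 and 0.0153 for Ighv6-3. Ighv6-3 was also called by the DESeq2 Wald test (0.00161) and by edgeR with library totals (0.0365). Ighv8-8 rose, from 10.2, 4.21 and 3.27 CPM to 30.8, 16.1 and 18.7 CPM (edgeR log2 fold change 1.89, adjusted p = 0.0226), and leaving out wild-type replicate 2, wild-type replicate 3 or knockout replicate 1 ended that call (0.0765, 0.0559 and 0.0648).

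In the kappa locus the segments of highest CPM, Igkv1-110 and Igkv1-117, were not called by edgeR. Igkv1-110 (chr6:68270485-68271267, plus strand) measured 36.4, 21.7 and 11.8 CPM in wild-type mice against 54.1, 40.6 and 124 CPM in the knockouts (edgeR log2 fold change 1.64, SE 0.58, adjusted p = 0.0564). Its near copy Igkv1-117 (chr6:68121046-68121827, plus strand) measured 30.6, 60.7 and 4.71 CPM against 42.1, 57.3 and 99.9 CPM (edgeR log2 fold change 1.06, SE 0.86, adjusted p = 0.328). The genotypes did not overlap for the former and overlapped for the latter. Igkv1-110 was called by the DESeq2 Wald test (adjusted p = 0.00296), by limma-voom (0.0424), and by edgeR with library totals (0.0268) or without knockout replicate 2 (0.0462).

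Other kappa V segments of high CPM rose. Igkv6-15 (chr6:70406469-70406992, minus strand) went from 5.67, 4.72 and 3.23 CPM to 33.0, 25.3 and 64.2 CPM (edgeR log2 fold change 3.17, SE 0.43, adjusted p = 0.00333). Igkv5-39 went from 8.25, 9.66 and 6.99 CPM to 42.6, 19.8 and 23.5 CPM (edgeR log2 fold change 1.79, SE 0.32, adjusted p = 0.00617). Both calls held whichever library was left out. Igkv10-96 (27.0, 4.64 and 5.16 against 58.2, 49.2 and 70.9 CPM, edgeR adjusted p = 0.0453) and Igkv19-93 (8.05, 1.59 and 2.55 against 19.0, 78.9 and 24.2 CPM, edgeR adjusted p = 0.0223) were less firm. Without wild-type replicate 2 their adjusted p was 0.113 and 0.0747, without wild-type replicate 3 it was 0.113 and 0.0797, and the call of Igkv10-96 also ended without any 1 of the knockout libraries (0.0702 to 0.0887). Both calls ended without a count filter (0.118 and 0.0710).

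Kappa V segments of smallest p were Igkv6-20, Igkv14-111 and Igkv12-44. Igkv6-20 measured 0.508, 0.687 and 0.551 CPM in wild-type mice against 6.21, 4.51 and 2.70 CPM in the knockouts (edgeR log2 fold change 2.94, adjusted p = 0.00287). Igkv14-111 measured 6.65, 5.41 and 2.86 CPM against 23.5, 26.5 and 31.2 CPM (edgeR log2 fold change 2.45, adjusted p = 0.00300). Igkv12-44 measured 6.33, 4.12 and 3.48 CPM against 15.7, 14.9 and 19.1 CPM (edgeR log2 fold change 1.83, adjusted p = 0.00319). In all 3 the genotypes were apart, and their parts of kappa V use overlapped between genotypes.

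Segments counted in every knockout library and in no wild-type library were rare ones. Ighv1-37 had 6, 12 and 43 counts in the knockout libraries, at least 14.7-fold higher when wild type is set at 3 counts over the group. Igkv3-9 had 12, 22 and 5 counts (at least 9.41-fold higher) and Igkv1-132 had 4, 1 and 16 (at least 5.07-fold higher). None of the 3 passed the filter with all libraries. They were picked for having no wild-type counts, so the direction of the tests that follow was fixed beforehand. The p-values are therefore no support for a rise. Without a count filter the edgeR adjusted p was 0.0304 for Ighv1-37, 0.0191 for Igkv3-9 and 0.0766 for Igkv1-132. In the fits without 1 library that kept them, on knockout counts alone, the edgeR adjusted p was 0.0393 to 0.0625 for Ighv1-37 and 0.0211 to 0.0545 for Igkv3-9.

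The 3 lambda V segments rose together. Iglv1 (chr16:19085017-19085500, minus strand) measured 14.5, 5.24 and 3.20 CPM in wild-type mice against 37.7, 30.1 and 64.6 CPM in the knockouts (edgeR log2 fold change 2.53, SE 0.63, adjusted p = 0.0198). Iglv2 measured 6.69, 2.83 and 0.964 CPM against 18.3, 12.1 and 28.3 CPM (edgeR log2 fold change 2.49, SE 0.72, adjusted p = 0.0301), and Iglv3, named after its values were seen, 2.66, 0.644 and 1.17 CPM against 7.21, 10.03 and 16.5 CPM (edgeR log2 fold change 2.91, adjusted p = 0.00912). Without wild-type replicate 2 the adjusted p was 0.0768 for Iglv1, 0.105 for Iglv2 and 0.0222 for Iglv3. Iglv2 also lost its call without knockout replicate 1 (0.0677) or 3 (0.0571). Without a count filter the adjusted p was 0.0538 for Iglv1 and 0.0697 for Iglv2.

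Among the J segments, Igkj2 and Igkj5 had the highest CPM. Igkj2 measured 18.8, 12.4 and 8.19 CPM in wild-type mice against 42.0, 44.6 and 43.0 CPM in the knockouts (edgeR log2 fold change 1.72, SE 0.29, adjusted p = 0.00549). Igkj5 measured 8.41, 4.81 and 3.37 CPM against 28.9, 25.6 and 48.5 CPM (edgeR log2 fold change 2.64, SE 0.42, adjusted p = 0.00489). Both calls held whichever library was left out, and both genotypes were apart. The remaining kappa J segments, described after their values were seen, had log2 fold changes of 1.64 (Igkj1), 2.66 (Igkj3) and 1.86 (Igkj4), with edgeR adjusted p of 0.0448, 0.0197 and 0.0265. Without wild-type replicate 2 those became 0.0728, 0.0685 and 0.0701, and leaving out knockout replicate 1 gave 0.0935, 0.0639 and 0.0555. Leaving out knockout replicate 3 also ended the calls of Igkj1 (0.0845) and Igkj4 (0.0542), and leaving out wild-type replicate 1 or knockout replicate 2 that of Igkj1 (0.0736 and 0.0635).

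Within the kappa locus, Igkj5 took a larger part of J counts in every knockout library, at 24.9%, 22.9% and 31.5% against 17.6%, 13.4% and 20.5% in wild type. Igkj5 is the J segment farthest downstream, and so the last that later rounds of kappa recombination can reach. Igkj2 use was 39.3%, 34.5% and 49.8% in wild type and 36.2%, 39.9% and 27.9% in knockout, and Igkj1 use 23.8%, 32.4% and 16.7% against 22.0%, 19.3% and 21.4%, both overlapping. Igkj3, a J segment known not to function in mice and whose printed sequence lacks the kappa motif, gave 0.209% to 1.23% of kappa J counts in wild-type mice against 1.17% to 1.77% in the knockouts. Igkj4 gave 18.1%, 18.9% and 12.8% against 15.1%, 16.4% and 18.0%.

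Heavy J segments, all described after their values were seen, showed 1 separation in use. Ighj3 gave 10.4%, 10.3% and 14.0% of heavy J counts in wild-type mice against 14.9%, 18.2% and 19.1% in the knockouts, with a narrow gap between the genotypes. Its level rose (edgeR log2 fold change 2.64, SE 0.47, adjusted p = 0.00587). Ighj1 and Ighj4 rose with log2 fold changes of 1.48 and 2.11 (edgeR adjusted p = 0.0361 and 0.0392). Those calls ended without knockout replicate 1 (0.102 and 0.101) or 3 (0.0786 and 0.0662). The call of Ighj1 also ended without wild-type replicate 1 (0.0888), and that of Ighj4 without wild-type replicate 2 (0.120) or 3 (0.0715). Ighj2 had a log2 fold change of 1.86 and an adjusted p of 0.0668. Ighj1 use was 13.8%, 47.3% and 22.9% in wild type and 17.3%, 16.6% and 16.4% in knockout, with wild-type replicate 2 far above the other 5 libraries.

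**Figure D5:**
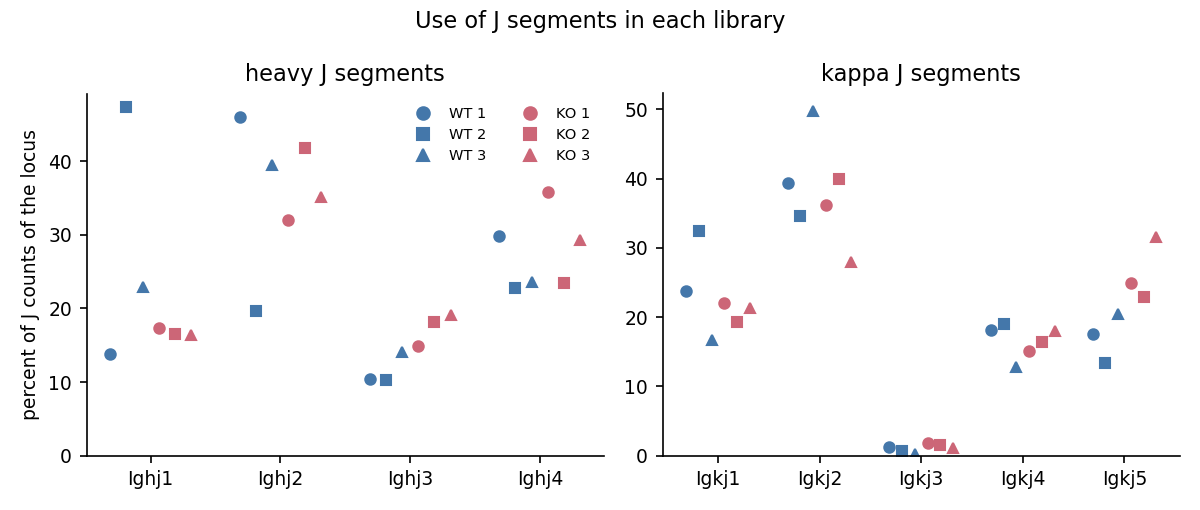
Use of each heavy and kappa J segment as a percent of the J counts of its locus, with 1 point per library, wild type in blue and knockout in red, and the replicate given by shape. Igkj5 lies between 22.9% and 31.5% in knockout and between 13.4% and 20.5% in wild type, and Ighj1 reaches 47.3% in wild-type replicate 2.

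Wild-type replicate 2 was the library with the highest use of 4 V segments, which were singled out after their values were seen. In mice, Ighv11-2 with Igkv14-126 and Ighv12-3 with Igkv4-91 are known pairs in antibodies to phosphatidylcholine, carried by many B-1 cells of the body cavities. Ighv11-2 (chr12:114048241-114048812) gave 1.62%, 7.49% and 0.511% of heavy V counts in wild-type mice against 0.152%, 0.437% and 0.106% in the knockouts. Ighv12-3 (chr12:114366521-114366954) gave 0.226%, 4.10% and 0.279% against 0.0931%, 0.148% and 0.0693%. Both heavy segments were used less in every knockout library than in any wild-type library. For Ighv11-2 the gap rests on few counts, with 11 in wild-type replicate 3 (0.511%) and 68 in knockout replicate 2 (0.437%). That of Ighv12-3 does as well, between 0.226% of 5316 heavy V counts in wild-type replicate 1 and 0.148% of 15555 in knockout replicate 2.

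Their light chain partners were also high in wild-type replicate 2. Igkv14-126 (chr6:67896172-67896642, plus strand) gave 5.59%, 16.7% and 2.33% of kappa V counts in wild-type mice against 0.800%, 0.422% and 0.993% in the knockouts, with no overlap. Igkv4-91 (chr6:68768555-68769103, minus strand) gave 1.44%, 10.7% and 0.754% against 0.971%, 0.534% and 2.47%, which overlapped. In CPM, Ighv11-2 measured 3.36, 9.96 and 0.379 in wild type and 0.837, 2.14 and 0.822 in knockout (edgeR log2 fold change -1.85, SE 1.07, adjusted p = 0.186). Ighv12-3 and Igkv14-126 had log2 fold changes of -1.77 and -1.66 (edgeR adjusted p = 0.240 and 0.216), and Igkv4-91 had 0.20 (edgeR adjusted p = 0.906). None of the 4 passed the test, while without wild-type replicate 3 Ighv11-2 did (log2 fold change -2.40, adjusted p = 0.0369), in a fit that called 20.3% of all genes lower. Without wild-type replicate 2, where its use was highest, the edgeR adjusted p of Ighv11-2 was 0.652. Leaving out wild-type replicate 1 or any 1 of the knockout libraries gave 0.175 to 0.366.

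That library also differed in its constant region genes. Counts of Ighm, the heavy chain of IgM, per count of Ighd, that of IgD, were 4.33, 35.6 and 6.49 in wild type and 3.94, 3.56 and 4.07 in knockout. Segment counts per count of Cd79a, a signalling part of the B cell receptor, were 15.8, 37.9 and 14.5 against 13.4, 10.4 and 11.6. Kappa V counts per lambda V count were 13.2, 31.5 and 18.0 against 12.5, 14.6 and 10.3. Igkc counts per lambda constant count were 8.89, 20.7 and 11.1 against 7.87, 8.45 and 6.97. In all of these ratios wild-type replicate 2 was the highest library. The separation did not rest on that library alone. Apart from kappa V per lambda V, which overlapped, each ratio was lower in every knockout library than in any wild-type library.

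By family, the large Ighv1 family of 73 segments gave 48.9%, 53.0% and 62.4% of heavy V counts in wild-type mice against 53.4%, 54.9% and 39.3% in the knockouts, which overlapped. The 4 segments of Ighv9, named after their values were seen, gave 1.79%, 1.32% and 1.21% against 4.02%, 5.70% and 3.62%, apart in every library, with Ighv9-3 holding most of it. Igkv16, a family of 1 segment, gave 0.994%, 0.439% and 0.790% of kappa V counts against 3.07%, 2.07% and 2.30%, also apart and also named afterwards. Such separation was not particular to Ighv9 and Igkv16. The families Ighv4, Igkv2, Igkv11 and Igkv13 were also used more in every knockout library, and Ighv11, Ighv12 and Iglv1 less. All other families overlapped. Igkv11 was near 0 in wild type, at 0.0745%, 0% and 0% of kappa V counts. Many families were looked over, and full separation of 3 against 3 libraries has an exact two-sided permutation p of only 0.10.

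Segment counts moved with the constant region genes that they are joined to. Heavy segment counts per count on heavy constant genes were 0.156, 0.124 and 0.137 in wild type and 0.155, 0.154 and 0.166 in knockout, and the lambda ratios were 0.281, 0.279 and 0.215 against 0.272, 0.264 and 0.316, both overlapping. Kappa segments per Igkc count were 0.457, 0.466 and 0.392 against 0.471, 0.497 and 0.506, apart by a small margin. Of 13 tested constant genes and Jchain, 8 rose by edgeR, against 28.0% of all genes tested. Among the 8 were Ighm (log2 fold change 1.88, adjusted p = 0.00652), Ighd (2.98, 0.0130), Igkc (1.83, 0.0110) and Igha, the IgA heavy chain (1.74, 0.0129). The IgG and IgE heavy chain genes Ighg1, Ighg2b, Ighg2c, Ighg3 and Ighe were not called, with log2 fold changes from 1.49 to 3.30.

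B cell markers rose with the segments. All 15 listed genes, among them Ebf1 and Blk, were called higher by edgeR, none was at 0 in either genotype, and their summed level was 201 to 549 CPM in wild type and 1927 to 2746 CPM in knockout. Of all genes tested, edgeR called 28.0% higher and 25.0% lower. Segment counts per count on this list were 1.13, 2.29 and 0.777 against 0.818, 0.727 and 0.812, which overlapped. The plasma cell list was split, with 7 of 10 higher and Sdc1, Xbp1 and Derl3 lower, 3 genes that secretory epithelium also expresses. Segment counts per count of Jchain, which joins IgA and IgM units in plasma cells, were 3.24, 2.60 and 3.08 against 3.06, 3.65 and 3.72.

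Genes of ongoing recombination were close to 0. Rag1, Rag2, Vpreb1 and Igll1 had between 0 and 21 counts in any library, Vpreb2 had 0 in wild type, and only Dntt, the enzyme that adds bases at joints, passed the filter and rose (edgeR log2 fold change 3.04, adjusted p = 0.00442). In the germinal centre list 5 of 6 rose, against 28.0% of all genes tested. Their summed level, with the gene not called, was 44.0 to 57.9 CPM in wild type and 102 to 128 CPM in knockout.

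Markers of lymphoid tissue also had higher summed levels in every knockout library, though the order of libraries within a genotype did not always follow that of the segments. T cell genes were higher in 10 of 10 cases (summed level 77.9 to 202 CPM in wild type, 456 to 1155 CPM in knockout), lymph node stroma genes in 5 of 8 (114 to 178 CPM, 426 to 1143 CPM) and spleen macrophage and spleen genes in 5 of 5 tested (87.9 to 294 CPM, 1174 to 1551 CPM). Over all genes tested, edgeR called 28.0% higher. Glycam1 gave most of the stroma sum in wild-type replicate 3 (113 CPM) and in knockout replicates 2 (364 CPM) and 3 (759 CPM). It was not called (edgeR adjusted p = 0.148). Of the spleen list, Tlx1 had 2, 5 and 2 counts in the wild-type libraries and 1 in each knockout library, and Nkx2-5 had 0, 2 and 2 against 0 in each. For 9 acinar genes the summed level was 132243 to 190620 CPM in wild type and 85.5 to 77008 CPM in knockout. Of these, edgeR called 0 of 9 lower (adjusted p 0.0579 to 0.577), with 1 at an unadjusted p under 0.05, while DESeq2 and limma-voom each called 2. Erythroid genes were higher in 1 of 5 (60.5 to 141 CPM, 154 to 454 CPM), which is not above the 28.0% of all genes tested. The part of these tissue differences in the segment results was not tested.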

How the data were processed

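Pancreas RNA of 6 mice, 3 per genotype, was analysed from the deposited tables. The deposited values are raw read counts per gene made by the authors, and a second deposited table holds log2 values of the same counts divided by size factors plus 1, which was not used for tests. The submitters' processing notes name STAR 2.5.3a, DESeq2 1.28.1 and FastQC 0.11.5 and the build GRCm38. Not given in the sources used here are the counting program, its strand setting, the annotation release and the rule for reads that match several genes.

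Counts of all genes were fitted with edgeR 4.0.16 in R 4.3.3 (TMM scaling, filterByExpr, robust quasi-likelihood test, genotype as the only term), with Benjamini-Hochberg adjustment over 17652 genes and 0.05 as the threshold. Alternatives were DESeq2 size factors, library totals, TMM without immunoglobulin and acinar genes, no count filter, the DESeq2 1.42.0 Wald test, limma-voom (limma 3.58.1) and leaving out each library. Shares, numbers seen, evenness and ratios are sums over the segments, so no p-value is given for them, and 3 against 3 animals cannot reach an exact two-sided permutation p below 0.10. Thinned numbers come from the hypergeometric distribution without random draws.

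Named segments were those of highest mean CPM (6 heavy V, 6 kappa V, 2 lambda V, 2 J or D), the most counted V segment of each locus in each library, up to 6 called segments of smallest p in each direction, and up to 3 segments found in every library of 1 genotype and none of the other. The segments and all lists were chosen with earlier results of these data known. Positions matched GENCODE vM21. Depth of 28105021 to 32055565 counts per library sets the intervals, which cover counting error only.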

Additional observations from a re-analysis of the deposited data

How the results depend on the processing

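The number of segments called higher (124) was 122 to 142 under the alternative scalings, without a count filter, and by DESeq2 (135) and limma-voom (135), and 97 to 130 when 1 library was left out. Library totals as the only scaling moved the median log2 fold change of all genes to 0.42 and that of the segments to 2.92. At an adjusted p under 0.01, 56 segments were called. At 0.05, across these alternatives and left-out libraries, 16.5% to 42.4% of all genes were called higher. Calls of lower segments were 0 to 1 when 1 library was left out, the 1 being Ighv11-2 without wild-type replicate 3, and 0 otherwise. Leaving out 1 library, the share difference was 0.134 to 0.193 percentage points, the thinned number seen 13.3 to 21.1, heavy V evenness -0.0224 to 0.0169 and kappa V evenness -0.00109 to 0.0841. The constant gene ratios differed by 0.0114 to 0.0274 (heavy), 0.0295 to 0.0664 (kappa) and 0.00395 to 0.0372 (lambda). Not thinned, the difference in segments seen was 59.7, and 76.3 with at least 10 counts. Neither value allows for the larger number of segment counts in the knockout libraries. The heavy V evenness difference of -0.00483 became 0.0579 with the depth-corrected inverse Simpson number over the thinned number seen. The kappa V difference of 0.0452 became 0.0872 with that measure. The cause was not tested. The log2 fold change of Ighv1-11 turned to 0.20 with library totals and 1.67 with limma-voom, and ran from -0.69 to 3.32 (0.23 without knockout replicate 2) when 1 library was left out. That of Ighv1-52 turned to 0.61 with limma-voom and ran from -1.74 to 1.64. No paired analysis was possible because the labels give no replicate numbers.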
